A study of Caenorhabditis elegans with 6 samples.

Results

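The C. elegans genes named mam-1 to mam-8 carry the name of the MAM domain. They were found as the genes whose platform symbol is mam- followed by digits, which gave 8 of the 17118 genes measured. Each had 1 probe set, and 0 probe sets with several symbols held a mam name. The family was put forward because of its values in the comparison of mutant with wild type described here. Its values in that comparison are therefore a description, and no p-value is given for a member.

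The MAM domain is named after meprin, the A5 protein and receptor protein tyrosine phosphatase mu. In vertebrates it lies in the extracellular part of secreted and membrane proteins, where it is known to take part in adhesion between cells and in the joining of subunits. In the nematode, epidermal cells build a new cuticle in every larval stage, and many genes for apical matrix and cuticle proteins are switched on and off with each molt.

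The samples were whole worms of Caenorhabditis elegans at the L4 stage, the last larval stage, grown as synchronized cultures at 25 °C on OP50 bacteria. The mutant strain, alg-1(gk214), written alg-1(-) in the labels, was measured on 3 arrays and the wild type strain N2 on 3. ALG-1 is an Argonaute protein that binds microRNAs and represses their target mRNAs, and the study asked about the genes it targets. The gk214 mutant is the only alg-1 allele analysed here. The labels call the 3 replicates of a genotype independent. They do not say whether these were separate cultures, so p-values may measure technical spread alone. RNA of whole worms cannot separate less RNA per cell from fewer cells of a type, nor more RNA per cell from more cells.

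Pearson correlations between arrays were 0.994 to 0.998 within a genotype and 0.968 to 0.976 between genotypes. The alg-1 probe set 177915_at gave log2 signals of 5.90, 6.09 and 6.09 on the mutant arrays and of 6.80, 6.83 and 6.65 on the wild type arrays, a change of −0.73 (SE 0.085, limma adjusted p = 0.000245). The other alg-1 probe sets changed by −0.62 (adjusted p = 0.00977) and differed by −0.10 (adjusted p = 0.748). No source used here places these probes against the gk214 deletion, so they check the genotype only in part. The GAPDH control probe sets gave a 3′ minus 5′ difference of −0.58 on wild type replicate 3 and of −0.23 to −0.14 on the other arrays.

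All 8 mam genes had a higher mean signal in the mutant, and the sizes of the differences varied widely. Genes mam-1, mam-2 and mam-3 were 5.23-fold to 6.28-fold higher, mam-8 was 2.22-fold higher and mam-4 was 1.86-fold higher. The differences of mam-7 and mam-5 were 1.34-fold and 1.26-fold, and mam-6 differed by 1.07-fold. In the limma model over all probe sets, 7 of the 8 passed an adjusted p of 0.05 as higher and 0 as lower. The counts at an unadjusted p under 0.05 were also 7 and 0, for which no share over all genes was computed. At the adjusted threshold, 14.4% of all genes passed as higher and 20.1% as lower. At 2-fold or more above the wild type there were 4 mam genes, against 3.21% of all genes. The mutant arrays lay wholly above the wild type arrays for 7 mam genes, and for 19.1% of all genes. Nothing is read from these shares, since the family was chosen from this contrast.

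The largest difference was that of mam-3. Its probe set 184682_s_at read 7.43, 7.52 and 7.44 log2 in mutant replicates 1, 2 and 3 and 4.66, 4.88 and 4.90 in wild type replicates 1, 2 and 3. The lowest mutant array lay 2.53 log2 above the highest wild type array, while arrays of a genotype spanned at most 0.24. The difference of the means was 2.65 (SE 0.084), from 4.81 ± 0.13 to 7.46 ± 0.05 (SD, n = 3).

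For mam-1, probe set 177715_s_at gave 8.14, 8.13 and 8.17 log2 on the mutant arrays against 5.68, 5.59 and 5.67 on the wild type arrays. This was the tightest member, with arrays of a genotype spanning at most 0.091 log2 and a gap of 2.45 between the genotypes. The means were 8.15 ± 0.02 and 5.65 ± 0.05 (SD, n = 3), a difference of 2.50 (SE 0.066).

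For mam-2, probe set 183582_at gave 8.45, 8.94 and 8.13 log2 on the mutant arrays against 6.15, 5.92 and 6.30 on the wild type arrays. The mutant arrays were spread over 0.81 log2, the widest span within a genotype among the members, with replicate 2 highest and replicate 3 lowest. The genotypes were nonetheless separated by 1.83 log2. The means of 8.51 ± 0.41 and 6.12 ± 0.19 (SD, n = 3) differed by 2.39 (SE 0.19). Unlike the probe sets of mam-1 and mam-3, that of mam-2 lacks the ending _s_at, which Affymetrix gives to probe sets matching several transcripts. The sources used here do not say whether those transcripts belong to 1 gene.

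**Figure D1:**
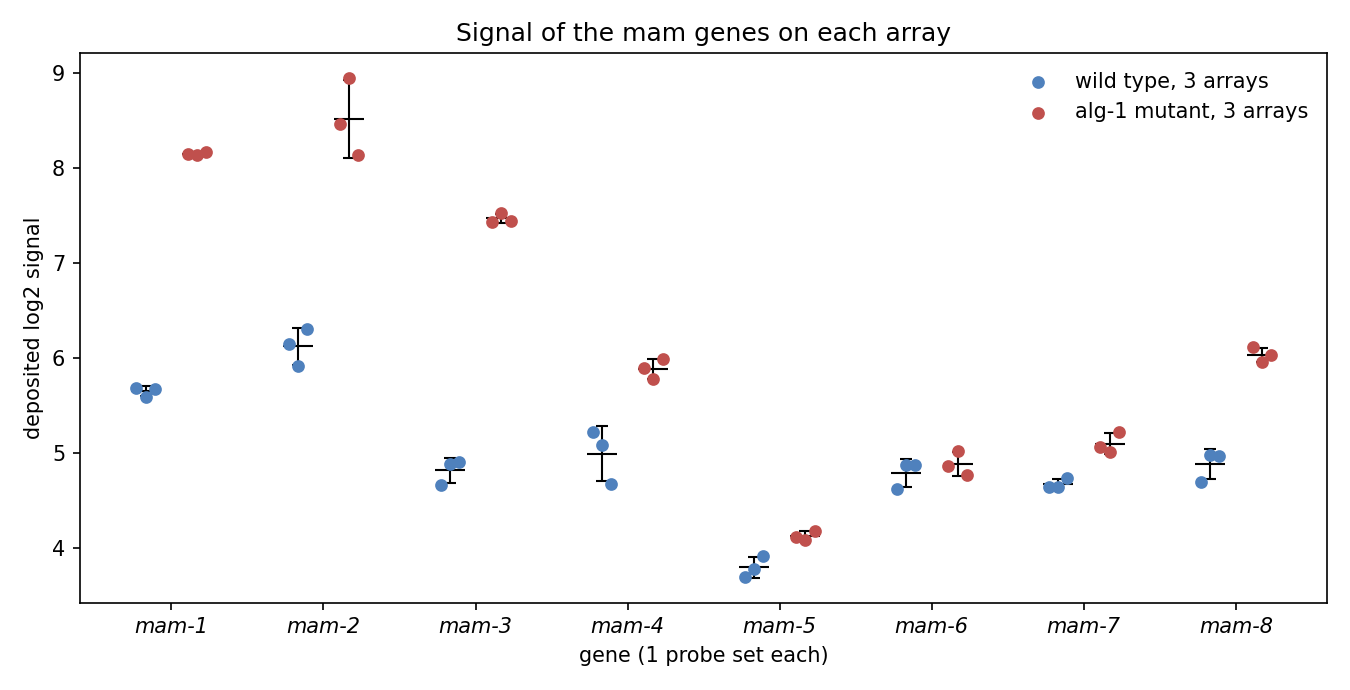
Deposited log2 signal (y axis) of the 8 mam genes (x axis, 1 probe set each) on the 3 wild type arrays (blue) and the 3 alg-1 mutant arrays (red); black marks give the mean ± SD of each genotype. Mutant arrays lie above all wild type arrays for 7 genes, by 2.53 log2 for mam-3 and 0.18 for mam-5, and overlap them for mam-6.

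Differences of intermediate size were those of mam-8 and mam-4. The mam-8 probe set, 181275_at, gave mutant values of 6.11, 5.96 and 6.02 log2 and wild type values of 4.69, 4.98 and 4.96. The genotypes did not overlap, and the difference was 1.15 (SE 0.093), from 4.88 ± 0.16 to 6.03 ± 0.08 (SD, n = 3). The mam-4 probe set, 189443_at, gave mutant values of 5.89, 5.77 and 5.99 log2 and wild type values of 5.22, 5.08 and 4.67. Here wild type replicate 3, the array that stood apart in its GAPDH controls, was the lowest, 0.32 log2 below the mean of its genotype. Without that array the mam-4 difference was 0.73, and with all arrays it was 0.89 (SE 0.14), from 4.99 ± 0.29 to 5.88 ± 0.11 (SD, n = 3).

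The remaining members differed little. The mam-7 probe set, 181274_at, gave mutant values of 5.06, 5.00 and 5.22 log2 and wild type values of 4.64, 4.63 and 4.73, a difference of 0.42 (SE 0.079). The mam-5 probe set, 183176_at, gave mutant values of 4.11, 4.09 and 4.18 and wild type values of 3.70, 3.77 and 3.91, a difference of 0.33 (SE 0.078). In both genes the mutant arrays lay above the wild type arrays, by gaps of 0.28 for mam-7 and 0.18 for mam-5. The mam-6 probe set, 183180_s_at, gave mutant values of 4.86, 5.02 and 4.76 and wild type values of 4.62, 4.87 and 4.87. Its genotypes overlapped, and the difference of 0.09 (SE 0.099) was within the spread of its arrays.

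Signal was low for most of the family. Over the 6 arrays the mean exceeded the all-probe-set median of 6.03 log2 for 3 members, mam-1, mam-2 and mam-3. The deposited table has no detection calls. The 27 Bacillus subtilis control probe sets on the arrays, whose genes the worm lacks, had a median of 3.87 log2 and a 95th percentile of 5.16. The means of mam-5, mam-6 and mam-7 in both genotypes, and of mam-3, mam-4 and mam-8 in the wild type, lay below that percentile. A log2 difference counted from such a low signal can understate the change in RNA. The mean of mam-5 stood at percentile 4.56 of all probe sets in the wild type and at 15.4 in the mutant.

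Ranked by the signed difference among the 22548 probe sets tested, mam-3 was at place 120, mam-1 at 139 and mam-2 at 158. Next came mam-8 at 557 and mam-4 at 788, then mam-7 at 2209, mam-5 at 2839 and mam-6 at 6063. The median difference of the 8 genes was 1.02 log2, and that of all genes was −0.06. Among all genes, the 95th percentile of the difference was 0.71 and the 99th was 2.09. The differences of mam-1, mam-2 and mam-3 lay above the second of these values and those of mam-4 and mam-8 between them.

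**Figure D2:**
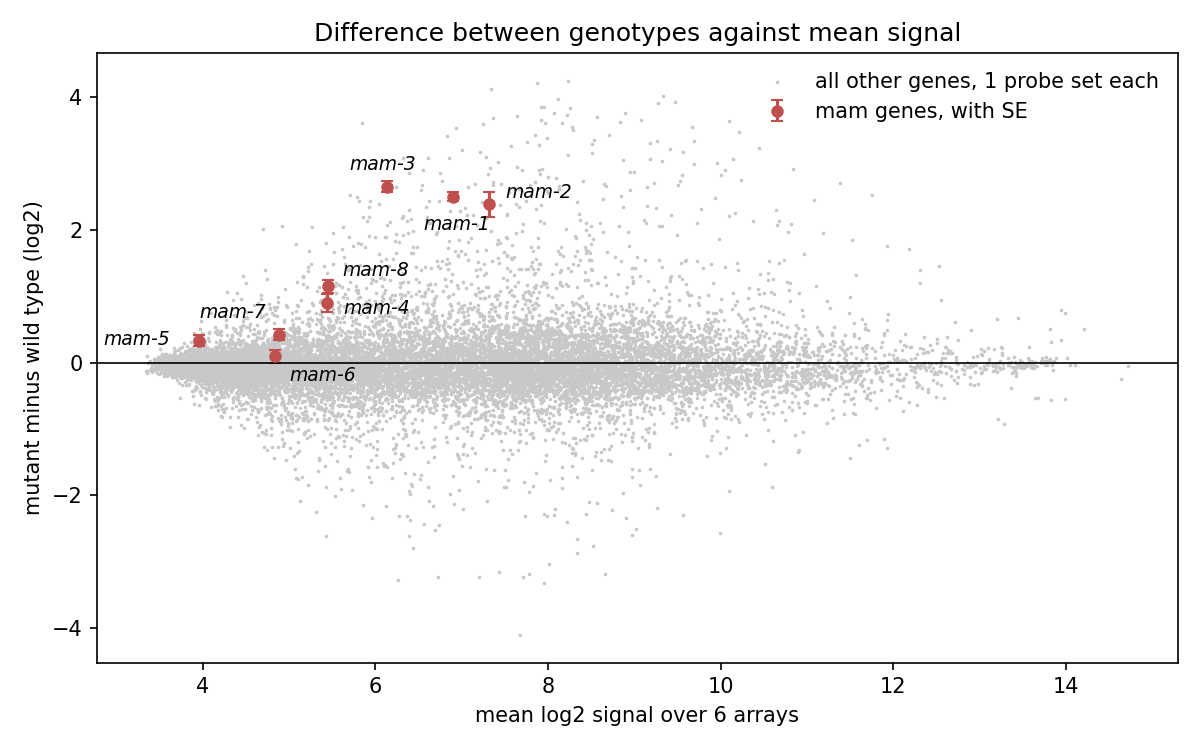
Mutant minus wild type difference in log2 signal (y axis) against mean log2 signal over 6 arrays (x axis) for the mam genes (red, with the SE of the difference) and all other genes (grey). All 8 mam genes lie above 0, with mam-1, mam-2 and mam-3 between 2.39 and 2.65 and mam-6 at 0.09.

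The genes whose profile over the 6 arrays was most like that of mam-3 were found among 8524 genes with a mean above the median. Likeness was the root mean square distance between profiles, each counted from its own wild type mean, so that the size of the genotype difference weighs most and the nearest genes are largely those that rose by a like amount. The mean of mam-3 itself exceeds the median of all probe sets only through the mutant arrays, so this likeness is a description. Nearest was the cuticle collagen gene rol-6, at a distance of 0.066 log2 and with a difference of 2.71 (SE 0.097). It was followed by lpr-7, a lipocalin-related gene, at 0.083 and by Y75B7AR.1 at 0.097. The zinc finger gene bed-3 stood at 0.098 and the molting gene mlt-10 at 0.10. Of the other members, mam-1 stood at 0.15 with 14 genes nearer, and mam-2 at 0.31 with 57 nearer. The rest were far from it, from mam-8 at 1.06 with 381 nearer to mam-6 at 1.81 with 3002 nearer.

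In a list of 36 genes that act in the molting cycle, 27 rose and 1 fell, with a median of 0.88 log2, against 14.4% of all genes that rose and 20.1% that fell. The lists compared with the mam genes were chosen with results of these data known, and no test of a list was made. Examples with the smallest p were mlt-10 (2.74, SE 0.075, limma adjusted p = 9.09e-08) and mlt-9 (3.66, SE 0.11, adjusted p = 1.01e-07). The hedgehog-related gene qua-1, needed for molting, rose by 3.61 (SE 0.13, adjusted p = 2.49e-07). The Dispatched-related gene che-14 rose by 2.28 (SE 0.10, adjusted p = 1.09e-06). The mean of the molting list ran from 8.98 to 9.06 log2 over the mutant arrays and from 7.77 to 7.97 over the wild type arrays. The same mean over the mam genes ran from 6.24 to 6.30 and from 4.92 to 5.00. The part of molt timing in the mam differences was not tested.

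Of 50 genes of the apical matrix and precuticle, the matrix laid down before the cuticle, 24 rose and 3 fell, with a median of 0.31 log2, against 14.4% and 20.1% of all genes. The median was 1.12 over the 25 of them with a mean above the median of all probe sets. That mean covers both genotypes, so genes can be kept through high mutant arrays alone. Nothing is therefore read from the rise in the median. The lipocalin-related gene lpr-7 rose by 2.67 (SE 0.12, limma adjusted p = 9.34e-07). Among the cuticlin-like genes, cutl-28 rose by 1.56 (SE 0.13, adjusted p = 3.72e-05) and cutl-15 by 1.28 (SE 0.078, adjusted p = 6.18e-06), while cutl-3 fell by 0.96 (SE 0.075, adjusted p = 2.66e-05).

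Of 35 cell adhesion genes, 21 rose and 2 fell, with a median of 0.37 log2, against 14.4% and 20.1% of all genes. Among cadherin genes, cdh-12 rose by 3.29 (SE 0.19, limma adjusted p = 4.45e-06). Smaller rises were those of cdh-5, at 2.35 (SE 0.11, adjusted p = 1.31e-06), and cdh-4, at 0.80 (SE 0.081, adjusted p = 0.000115). The receptor tyrosine phosphatase gene clr-1 rose by 0.72 (SE 0.088, adjusted p = 0.000347). In this list 3 of the 35 genes passed and rose by 2-fold or more, against 3.21% of all genes.

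The astacin metalloproteases include the worm's relatives of meprin, a vertebrate protease with a MAM domain. Of 33 measured nas genes, 10 rose and 5 fell, or 30.3% and 15.2%, with a median of 0.00 log2. Over all genes the shares were 14.4% and 20.1%. The largest change among the 4 with the smallest p was that of nas-15, which rose by 3.06 (SE 0.16, limma adjusted p = 2.33e-06). The genes nas-37 and nas-4 rose by 2.74 (adjusted p = 1.46e-06) and 2.68 (adjusted p = 2.70e-07). By contrast nas-9 fell by 1.44 (SE 0.089, adjusted p = 6.36e-06). The genes nas-6, nas-7, nas-36 and nas-37 are counted in the molting list as well. Of 9 genes that attach the epidermis to muscle and cuticle, 2 rose and 3 fell, or 22.2% and 33.3%, with a median of −0.03. The transmembrane attachment gene mua-3 rose by 1.14 (SE 0.19, adjusted p = 0.00193), and its relative mup-4 by 0.74 (SE 0.16, adjusted p = 0.00658). The cytoskeletal linker gene vab-10 fell by 0.68 (SE 0.10, adjusted p = 0.0012) and pat-12, an attachment gene, by 0.36 (SE 0.082, adjusted p = 0.00857).

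**Figure D3:**
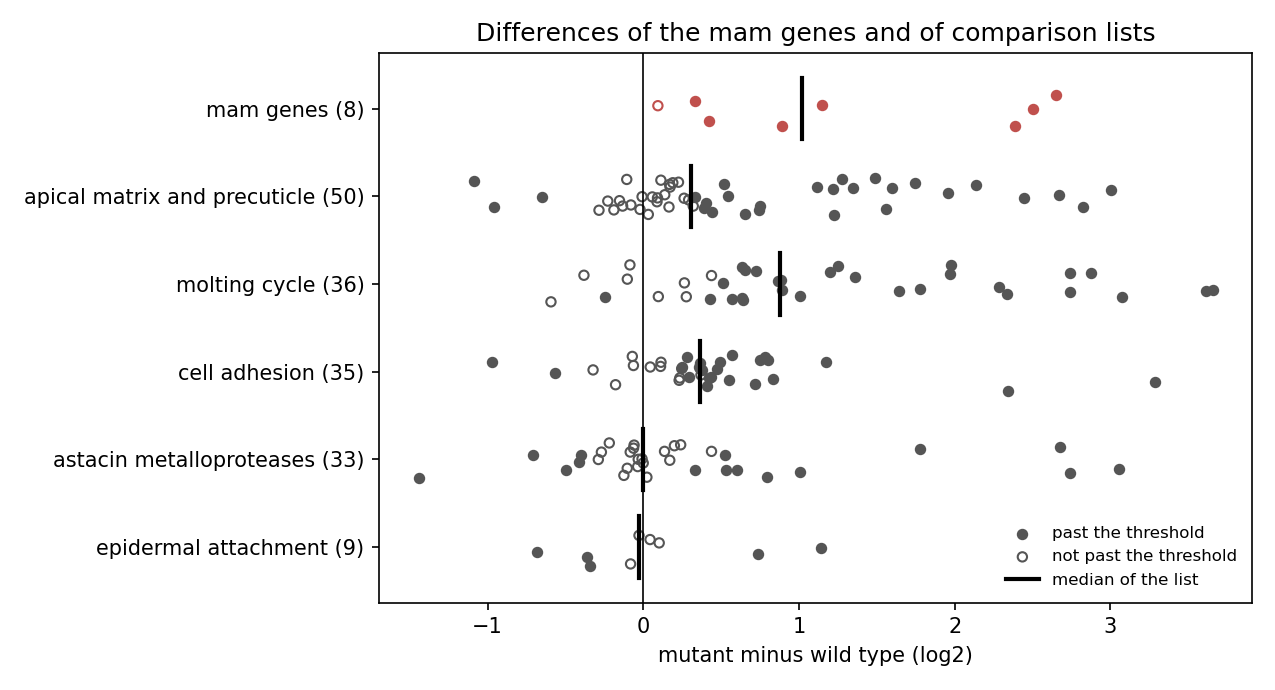
Mutant minus wild type difference in log2 signal (x axis) of each mam gene and each gene of 5 comparison lists (y axis, number of genes in brackets); filled points passed an adjusted p of 0.05, open points did not, and black bars are list medians. The median is 1.02 for the mam genes, 0.88 for the molting list and 0.00 for the astacin metalloproteases.

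Tissue markers were read beside these values. At the adjusted threshold 14.4% of all genes rose and 20.1% fell, and nothing is read from a marker count near these shares. No share over all genes was computed at an unadjusted p. Of 6 epidermal markers, 3 rose and 0 fell, with the same counts at an unadjusted p under 0.05 in limma. Their differences ran from −0.12 to 2.71 log2. Their mean ran from 9.41 to 9.50 log2 over the mutant arrays and from 8.44 to 8.59 over the wild type arrays. The cuticle collagen gene rol-6, also the nearest profile to mam-3, carried much of this. The difference of the marker means was 0.94 log2 with it and 0.58 without it, a repeat added with the data in view. All 5 sperm markers fell, with array means of 4.66 to 4.87 in the mutant and 5.94 to 6.17 in the wild type, and 4 of 5 germline markers fell. Of 5 body wall muscle markers, 0 rose and 0 fell in limma (0 and 1 at an unadjusted p under 0.05), with array means of 9.47 to 9.52 and 9.31 to 9.55. The other counts were 1 rise and 3 falls among 4 pharyngeal markers, 1 rise and 2 falls among 5 intestinal markers (2 and 2 at an unadjusted p under 0.05), and 0 rises and 1 fall among 5 neuronal markers. At an unadjusted p the neuronal counts were 1 and 1. The part of these shifts in the mam differences was not tested.

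Within a genotype, the members did not move together on all arrays. On wild type replicate 1, mam-8, mam-6 and mam-3 lay 0.15 to 0.18 log2 below their genotype mean, while mam-4 lay 0.23 above it and the molting list 0.14 above. On wild type replicate 3, 7 members lay above their genotype mean, by 0.02 to 0.18, and mam-4 lay 0.32 below. On mutant replicate 2, mam-2 lay 0.43 above its mean, while the largest deviation of another member was 0.14, that of mam-6.

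**Figure D4:**
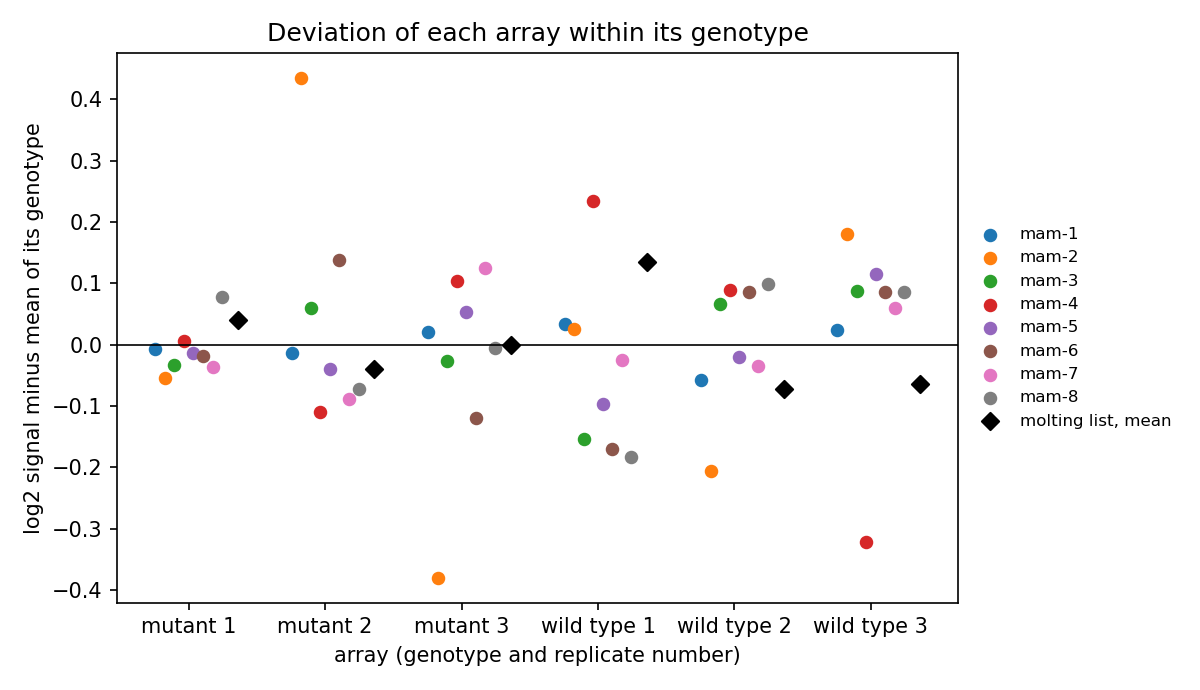
Log2 signal minus the mean of its genotype (y axis) on each of the 6 arrays (x axis) for the 8 mam genes (coloured points) and for the mean of the 36 molting genes (black diamonds). The widest deviations are 0.43 and −0.38, of mam-2 on mutant replicates 2 and 3, and −0.32, of mam-4 on wild type replicate 3.

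No mam gene lies directly beside another in the order of protein-coding genes of the reference assembly WBcel235. Of the 16 flanking genes, 15 were measured, of which 3 rose, 4 fell and 8 did not pass, against 14.4% and 20.1% of all genes. Nothing about the neighbours as a group is read from these counts. These neighbours were looked up after the values were seen. Beside mam-1, mab-7 rose by 2.00 (SE 0.22, limma adjusted p = 0.000198). Beside mam-3, K09B11.5 fell by 0.95, while uso-1 did not pass. The genes flanking mam-2, rrp-1 and uba-1, differed by −0.12 and 0.12 and did not pass. The Argonaute gene alg-4, beside mam-7, fell by 1.55 (SE 0.19, adjusted p = 0.000383).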

How the data were processed

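Every probe set has 1 deposited log2 value for each array. Per the submitters' processing notes, the authors used Affymetrix Power Tools. The version, and how background, scaling and summarization were handled, are not given in the sources consulted. That the scale is log2 was inferred from the range, 3.14 to 14.9. Array medians were 6.01 to 6.05, and the values were used as deposited. About 5 µg of total RNA was labelled per array, per the labels' protocols. No detection calls were used. Precision is limited by the number of arrays.

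Of 22625 probe sets, 77 Affymetrix controls were left out and 22548 were tested. Platform symbols were updated by gene identifier with the RefSeq table of WBcel235 (20701 of 20766 probe sets with 1 symbol matched). That table served for names and gene order alone. Where a gene had several probe sets with 1 symbol, the brightest on average stood for it. Mutant minus wild type was fitted with limma 3.58.1 in R 4.3.3 (lmFit, eBayes), two-sided, with Benjamini-Hochberg adjustment over all probe sets and a threshold of 0.05. Each SE is that of the limma model, which draws a probe set's variance toward that of all probe sets. It therefore need not follow from the SDs printed beside it. With 3 arrays against 3, the smallest exact permutation p is 0.1. On simulated data of this comparison with 22548 probe sets, the step recovered 62.7% of 67 changes of 0.5 log2, 92.5% of 67 of 1 log2 and 100% of 66 of 2 log2, with 10 false among 180 calls. The simulation changed far fewer probe sets than the 7591 that passed in the data. Its rates therefore check the step and need not hold for this comparison.

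The members and lists were chosen with earlier results of these data known. Named by rule are alg-1, all mam genes and up to 4 genes of smallest p per list. The rule also named the 5 nearest profiles to the mam gene with the largest difference. Some flanking genes are named too, under no rule set beforehand. A planned search for related proteins was not run, since protein sequences were not used here. The alternatives were other scalings, signal filters, variance models, a threshold of 0.01, removal of _s_at and _x_at probe sets, a replicate block, the mean of a gene's probe sets and leaving out each array.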

Additional observations from a re-analysis of the deposited data

How the results depend on the processing

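The repeats on the mam genes describe values that chose the family and give it no support. At a threshold of 0.01, 6 members passed, without mam-5, against 4767 of all 22548 probe sets. Leaving out any array left 7 at 0.05, against 5443 to 7833 of all probe sets. Without mutant replicate 3, mam-5 passed only just. A signal filter at the median left 3 members to test and 3 calls, against 5636 of the 11274 probe sets it kept. Of the 3 members, mam-1 and mam-3 were kept only through their mutant arrays, so nothing is read from this count. Without _s_at and _x_at probe sets 5 members were tested and 5 passed. Leave-one-out differences were 2.57 to 2.69 for mam-3, 2.17 to 2.58 for mam-2, 0.73 to 1.01 for mam-4 and 0.01 to 0.15 for mam-6.

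Over all probe sets 7591 passed, 44.0% of them higher. The counts were 4715 without _s_at and _x_at probe sets, where 15837 were tested, and 4767 at a threshold of 0.01. Centring on bacterial controls made 63.8% of the calls higher, and on hybridization controls alone (added with the data in view) 68.8%. These moved the median difference of all probe sets from −0.05 to 0.06 and 0.08. The median of the mam genes was 1.13 and 1.16 under them. Of the 159 list genes, chosen with results known, 95 passed, 85.3% of them higher (all genes: 14.4% higher, 20.1% lower). Without _s_at and _x_at probe sets 57 of 104 passed, 84.2% of them higher.

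The median of the astacin metalloproteases, 0.00, was slightly negative and turned to 0.028 with quantile normalization, 0.010 with median centring, 0.10 and 0.13 with the control centrings, 0.48 and 0.17 with signal filters at the median and at the 25th percentile, 0.034 with array weights and −0.024 to 0.11 leaving out arrays. That of the epidermal attachment genes, −0.03, turned to 0.077 and 0.11 with the control centrings, 0.0051 with array weights and −0.099 to 0.020 leaving out arrays. The signal filters can keep genes through high mutant arrays alone, so nothing is read from the astacin medians under them. The cause of the other shifts was not tested.

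With replicate number as a block, 7766 probe sets and 7 mam genes passed. Deviations of same-numbered arrays correlated by 0.21, 0.13 and 0.081, not all above 0.1 and so not taken as pairing, and wild type replicate 3 correlated best with mutant replicate 2 (0.10). Averaging probe sets could not change the mam genes, which have 1 each.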
